A study of Mus musculus with 2 samples.

Results

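The genes described here encode interferon-induced GTPases of 2 families, the guanylate-binding proteins (GBP) and the immunity-related GTPases (IRG). They were chosen by name: Gbp2, Gbp3, Gbp4, Gbp5 and Gbp7, and Iigp1, Irgm1, Irgm2, Igtp and Ifi47. Of these 10 names 9 had a row in the deposited table of 38293 genes, 4 of the GBP and 5 of the IRG family. Gbp5 was not analysed here. The RNA came from lung resident macrophages of 8-week-old C57BL/6 mice, taken 7 days after each mouse had been given 625 larvae of the roundworm Nippostrongylus brasiliensis under the skin. Cells were sorted as CD45+, CD11c high, Siglec-F+ and CD11b low, a surface pattern of alveolar macrophages. One group was wild type (WT) and the other was Axl-/-Mertk-/-, which is labelled as null for Axl and Mertk, receptor kinases that sense apoptotic cells. Both groups were infected, and no uninfected library was analysed here. Each group is 1 library, and the labels do not say how many mice it holds.

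GBP and IRG proteins are large GTP-binding proteins that macrophages make in quantity when interferon gamma, and to a lesser degree type I interferon, reaches them. They gather on the vacuoles of intracellular bacteria and protozoa and on bacterial surfaces, where they help to break the compartment open and to bring inflammasome caspases into play. Among the IRG proteins, Irgm1, Irgm2 and Igtp (also called Irgm3) sit on the cell's own membranes and keep the others inactive there, whereas Iigp1 (Irga6) and Ifi47 (Irgd) belong to the effector kind that is loaded onto vacuoles. Interferon gamma signalling acts on short DNA elements called GAS, and interferon response factors such as IRF1 bind a longer element called ISRE.

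The promoter sequences are shown because these elements are the usual link between interferon and this family. Of the 9 genes, 7 had entries among the RefSeq promoters (GRCm38.p6, 250 bases before to 50 after each start), with 2 windows for Gbp3. Gbp4 and Iigp1 had no entry, so their promoters were not searched. ISRE was searched as GAAANNGAAA on both strands and GAS as TTCNNNGAA, which reads the same on both. Neither search overlapped the other in these genes. The ISRE letters were present in 6 of the 7 genes, against 3.44% of all 32851 windows and 3.99% of 27025 genes. The GAS letters were present in 3, against 8.30% of windows and 9.55% of genes. Each line below runs 5′ to 3′ on the gene's own strand, with the ISRE matches, and any GAS match close to them, in capitals.

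Gbp2 (chr3:142620589-142620628, plus strand): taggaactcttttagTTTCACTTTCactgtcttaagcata

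Gbp3 (chr3:142559984-142560029, plus strand): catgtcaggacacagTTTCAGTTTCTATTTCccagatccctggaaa

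Gbp7 (chr3:142530234-142530307, plus strand): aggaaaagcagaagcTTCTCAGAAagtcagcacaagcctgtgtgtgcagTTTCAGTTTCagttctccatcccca

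Irgm1 (chr11:48871420-48871465, minus strand): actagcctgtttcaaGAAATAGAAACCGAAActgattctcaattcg

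Igtp (chr11:58199496-58199546, plus strand): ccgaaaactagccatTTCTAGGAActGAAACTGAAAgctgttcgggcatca

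Irgm2 (chr11:58214887-58214937, plus strand): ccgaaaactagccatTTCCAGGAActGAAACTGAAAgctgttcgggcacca

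In the 3 GBP genes the ISRE letters lay on the strand opposite to the gene, and in the 3 IRG genes on the same strand. A second GAS match of Gbp7, farther upstream, is not printed. The ISRE match began 59 bases before the RefSeq start in Gbp2, 53 in Gbp7, 64 in Irgm2 and 34 in Igtp. Gbp3 and Irgm1 each held 2 overlapping matches, which began 45 and 39 bases before the start in Gbp3 and 30 and 24 in Irgm1. The gene limits given further below come from another annotation, GENCODE, whose starts can differ. The ISRE matches of Gbp2, Irgm1 and Irgm2 lie inside those limits. The stretches from Igtp and Irgm2 were the same at 49 of 51 bases. Counted from 1 at the 5′ end, the substitutions from Igtp to Irgm2 were T19C, inside the GAS letters, and T49C. In both genes the GAS letters began 11 bases before the ISRE letters. That spacing, looked for after these matches had been seen, occurred in 5 of 32851 windows, those of Igtp, Irgm2, Tgtp1, Tgtp2 and Gm12185. Ifi47 had neither kind of letters in its window. A match describes the letters alone and does not show that a factor binds there.

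**Figure D1:**
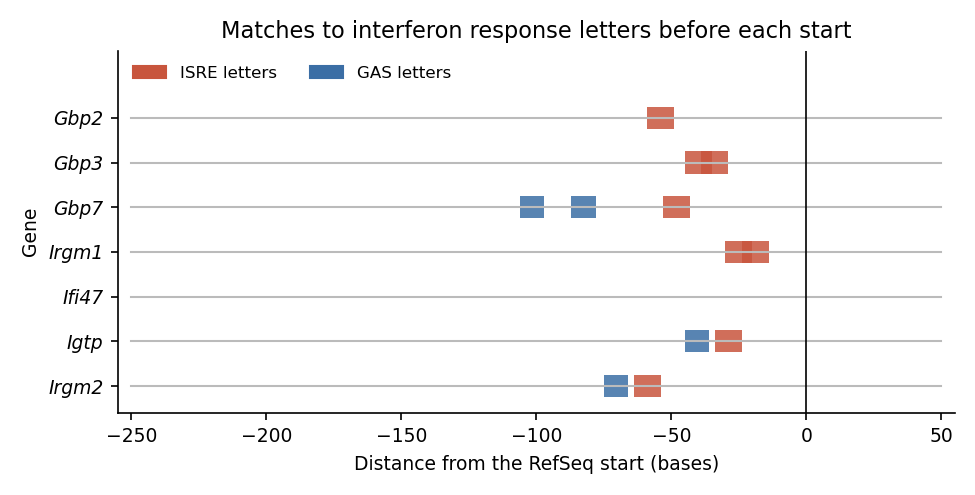
Position of ISRE letters (red) and GAS letters (blue) in the RefSeq promoter window of 7 genes, in bases from the start (vertical line), for Gbp3 in the one of its 2 windows that held matches. All ISRE matches lie within 59 bases of the start except that of Irgm2, at 64, and the Ifi47 line is empty.

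Reads assigned to genes numbered 15282882 in the WT and 15519680 in the Axl-/-Mertk-/- library. Values are given in normalised reads, and a single read counts as 1.21 of them in WT, 1.18 in Axl-/-Mertk-/-. With 1 library per genotype there is no spread between replicates, so no difference was tested and no p-value is given. The interval beside a ratio is the exact 95% counting interval (Clopper-Pearson) and covers counting error only. Genes averaging at least 20 normalised reads across the pair of libraries are called measured, and there were 11795. All 9 GTPase genes passed this in each library by itself. Of the targeted genes, Axl fell from 24790 in WT to 3851 in the library labelled Axl-/-Mertk-/-, or 15.5% of WT, and Mertk from 6484 to 2842, or 43.8%. The values are sums over each whole gene, so reads from the deleted part could not be told from the rest. The sorted cell type was checked by 19 alveolar macrophage markers, of which 18 were measured. They included Chil3, the most abundant, Itgax (CD11c, at 40087 normalised reads in WT against 39176 in Axl-/-Mertk-/-) and Siglecf (2566 and 2347).

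As a sum, the family was slightly higher in Axl-/-Mertk-/-. The normalised reads of the 9 genes summed to 4378 in WT against 5298 in Axl-/-Mertk-/-, 1.21 times the WT sum (1.16 to 1.26). The ratio was above 1 for 8 of the 9 genes, where 48.8% of all measured genes had a ratio above 1. The counting interval lay above 1 for 5 genes, against 10.1% of all measured genes, and below 1 for 0, against 11.4%. At least 1.5-fold higher were 2 genes, Iigp1 and Gbp4, against 1.74% of all measured genes, and 0 were 1.5-fold lower, against 1.33%. For these counts 10 was added to both values before the ratio was taken. Iigp1 alone was at least 2-fold higher on that scale, as were 0.348% of all genes. The median log2 ratio on that scale was 0.30, beside -0.0047 over all measured genes. In bulk RNA, more cells that express a gene and more RNA per cell cannot be told apart.

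Levels between the genes can be compared only per length, here in normalised reads per kilobase of merged exons. On this scale Gbp2 was the highest of the 9, at 573 in WT and 708 in Axl-/-Mertk-/-. Gbp3 followed at 175 and 229, Gbp7 at 154 and 164, Ifi47 at 134 and 150, Igtp at 126 and 121, and Irgm1 at 102 and 111. Irgm2 lay lower at 52.7 and 65.6. Gbp4 and Iigp1 were far below the rest. Gbp4 was at 10.8 in WT and 22.5 in Axl-/-Mertk-/-, and Iigp1 at 8.70 and 30.0. The order of the first 7 genes was the same in both libraries, and the last 2 changed places. In WT the counting intervals of neighbours in this order overlapped from Gbp3 down to Irgm1 and again between Gbp4 and Iigp1. In Axl-/-Mertk-/- they overlapped from Gbp7 down to Irgm1 and between Iigp1 and Gbp4, so those orders are not resolved even by counting error.

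**Figure D2:**
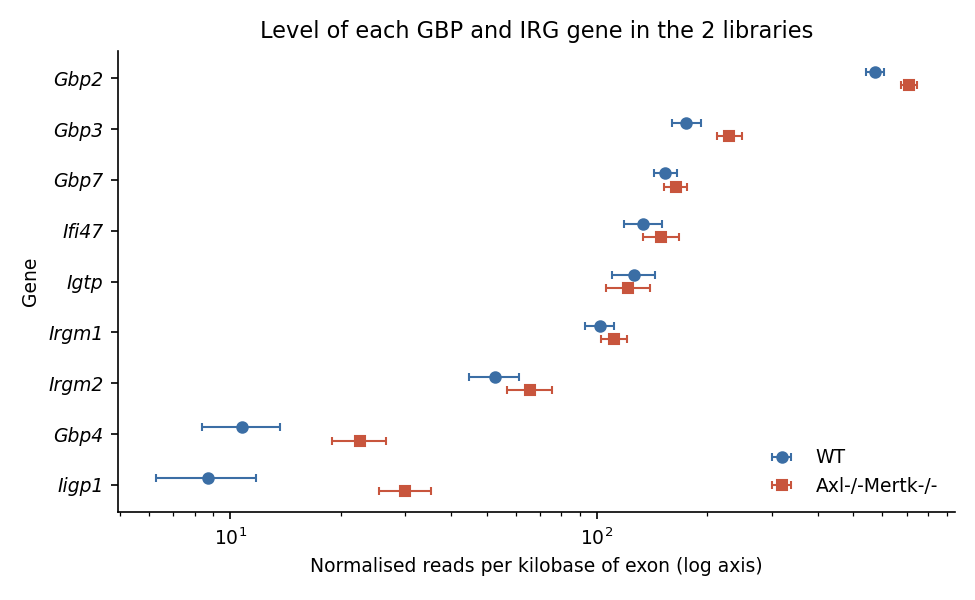
Level of each gene in WT (blue circles) and Axl-/-Mertk-/- (red squares) in normalised reads per kilobase of exon, on a log axis, with exact 95% Poisson counting intervals as bars. Gbp2 is highest at 573 and 708, and the points of the 2 libraries stand well apart for Gbp4 and Iigp1, the lowest pair.

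The guanylate-binding protein genes listed were all above WT. Gbp2, whose protein coats vacuoles and bacteria, stood at 1441 normalised reads in WT against 1780 in Axl-/-Mertk-/-, or 1.24 times WT (1.14 to 1.33). Gbp3 had 572 and 748, a ratio of 1.31 (1.16 to 1.48). Both intervals exclude 1 and neither ratio reached 1.5. Gbp7 had 863 and 921, a ratio of 1.07 whose interval includes 1 (0.963 to 1.18). These 3 genes lie in one cluster on chromosome 3 (GRCm38; Gbp7 from 142530342 to 142550149, Gbp3 from 142560026 to 142573209, Gbp2 from 142620602 to 142638008). They span a range from no difference beyond counting error to about 30% higher.

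Gbp4 lies in the second GBP cluster, on chromosome 5 (105115767 to 105139586, minus strand). It was covered by 67 reads in WT against 143 in Axl-/-Mertk-/-, or 80.9 and 169 normalised reads. The ratio was 2.09 (1.55 to 2.83), and it ranked 48 from the highest among the 11795 measured genes. Its reads are uncertain in their assignment. Its transcript is 93.1% identical to that of Gbp8 over 1234 bases, and 61 of its exon bases are also annotated to Gbp8. The relatives in that cluster were also above WT. Gbp8 had 139 and 257 normalised reads, or 1.85 times WT (1.47 to 2.34). The row named Gbp6 had 206 and 269, a ratio of 1.30 (1.06 to 1.60), and its identifier covers the region of Gbp6 and Gbp10. Gbp9 had 233 and 254, or 1.09 times WT, and its interval spans 1 (0.893 to 1.33). Summed over these 4 rows the ratio was 1.44 (1.29 to 1.61). Dividing shared reads differently among the 4 would not change this sum, but dropping them or counting them more than once would. The sum can also depend on reads shared with Gbp10, Gbp11 and the gene that GENCODE names Gbp6, which lie outside it. Those 3 are 91.8%, 91.1% and 91.3% identical to Gbp4 in the matched stretches. The ratio was 1.20 (1.14 to 1.26) over Gbp2, Gbp3, Gbp7 and Gbp2b, the chromosome 3 cluster. The counting intervals of these sums do not overlap, and no test of their difference between genotypes was possible.

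Of the IRG genes, the effector Iigp1 had the highest ratio of the whole family. It was covered by 42 reads in WT against 148 in Axl-/-Mertk-/-, which is 50.7 and 175 normalised reads and 3.45 times WT (2.43 to 4.98). It ranked 6 from the highest among all measured genes. Its gene lies on chromosome 18 (60376027 to 60392634). Gm4951, a related predicted gene of the same chromosome, had 64.0 and 110 normalised reads, or 1.72 times WT (1.21 to 2.45). Iigp1 and Gbp4 are the members with the fewest reads, and 9 of 12 endothelial and 5 of 5 red cell markers measured were also at least 1.5-fold higher. Of these markers Ramp2, Tie1 and Alas2 passed the minimum mean only through the Axl-/-Mertk-/- library. Among the 773 measured genes with a mean from 100 to 150 normalised reads, the range that holds both, 1.94% were 1.5-fold or more higher and 0.647% were 2-fold or more higher.

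Ifi47, the other effector listed, had 331 and 371 normalised reads, or 1.12 times WT (0.950 to 1.32). It lies on chromosome 11 (49076587 to 49096974). Irgm1, which restrains the effectors on the cell's own membranes, had 591 and 647, a ratio of 1.09 (0.967 to 1.24), and lies in the same cluster (48861968 to 48871683, minus strand). Neither can be told from 1 by counting error. Irgm2 had 194 and 242, a ratio of 1.25 (1.01 to 1.54), so its interval only just excludes 1. Igtp had 255 and 246 and was the one gene below WT, at a ratio of 0.964 (0.792 to 1.17), which also includes 1. Irgm2 (chromosome 11, 58199618 to 58222782) and Igtp (58199556 to 58207591) overlap on the plus strand, and 162 exon bases are annotated to both. Their split is therefore uncertain, and their summed ratio was 1.09 (0.942 to 1.25).

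By kind, the summed reads of Irgm1, Irgm2 and Igtp had a ratio of 1.09 (0.994 to 1.20). Those of the effectors Iigp1 and Ifi47 had a ratio of 1.43 (1.24 to 1.66), and those of the 4 GBP members 1.22 (1.16 to 1.29). The effector sum rests on Iigp1, since Ifi47 by itself was at 1.12. For the 5 IRG members as a whole the ratio was 1.18 (1.09 to 1.28). Without Iigp1 it was 1.10, and the ratio over the other 8 members was 1.18.

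**Figure D3:**
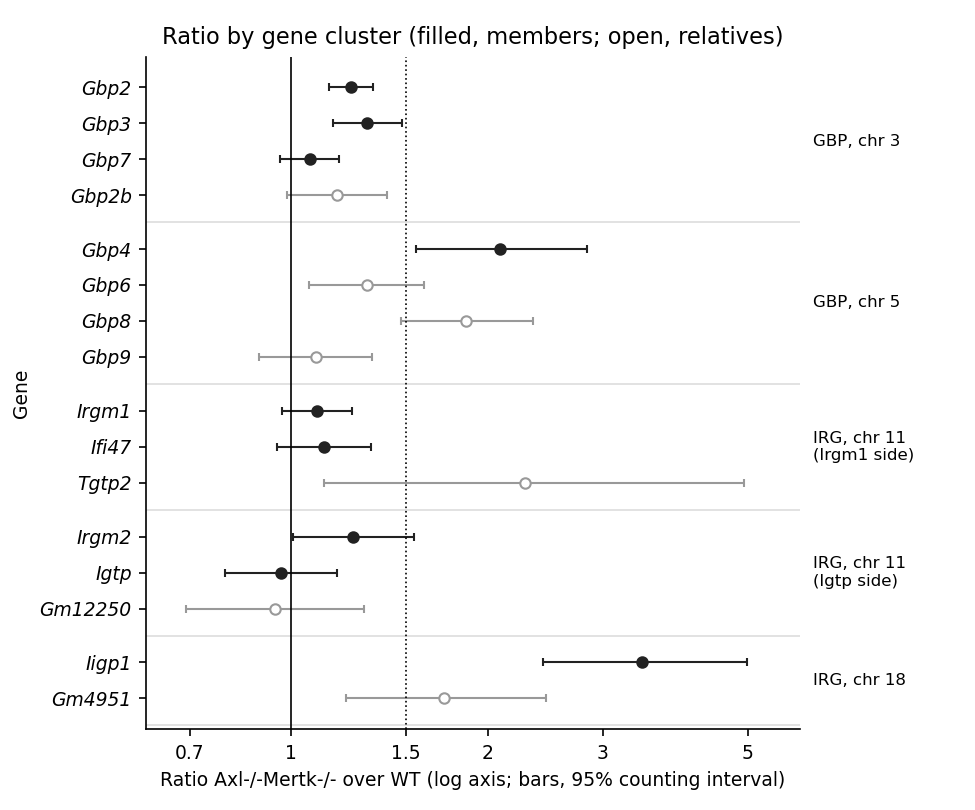
Ratio of Axl-/-Mertk-/- over WT for members (filled) and the measured relatives in the same gene clusters (open), on a log axis with 95% counting intervals as bars; the solid line marks 1 and the dotted line 1.5. Iigp1 at 3.45 and Gbp4 at 2.09 lie past the dotted line with their whole intervals, whereas Irgm1, Ifi47, Igtp and Gbp7 cross 1.

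Other GTPase genes in the table moved in both directions. Of 16 relatives listed 13 were measured, 6 of them higher and 7 lower, where 48.8% of all measured genes were higher. All 4 measured GBP relatives were higher, and of the 5 measured IRG relatives on the list 2 were higher and 3 lower. Besides the 3 of chromosome 5 this was Gbp2b, with 288 and 339 normalised reads and a ratio of 1.17 (0.986 to 1.40). The effector Gm12250 (Irgb10), next to Igtp, had 104 and 98.0 normalised reads, or 0.944 times WT (0.690 to 1.29). GENCODE annotates Gm12250 as a processed pseudogene. Tgtp2, an effector gene that passed the minimum only through the Axl-/-Mertk-/- library, had 12 and 28 reads, a ratio of 2.28 (1.12 to 4.93). Its near copy Tgtp1 was not measured, at 5 and 2 reads. Irgq, which has no known interferon response, was at 490 normalised reads in both libraries. Irgc1, known from the testis, had 47.1 and 37.8, a ratio of 0.803 (0.487 to 1.31). The very large GTPase genes Gvin1 and Gm4070 had ratios of 0.897 (0.665 to 1.21) and 0.938 (0.699 to 1.26).

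RNA of Mx1 and Mx2, genes of the antiviral MX family of dynamin-like GTPases that type I and type III interferons induce, lay in the other direction. Mx2 is annotated as a polymorphic pseudogene. Mx1 stood at 279 normalised reads in WT against 205 in Axl-/-Mertk-/-, or 0.737 times WT (0.602 to 0.901). Mx2 had 51.9 and 28.3, a ratio of 0.546 (0.317 to 0.920). Their summed ratio, 0.707 (0.586 to 0.852), had an interval entirely below that of the GBP members.

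**Figure D4:**
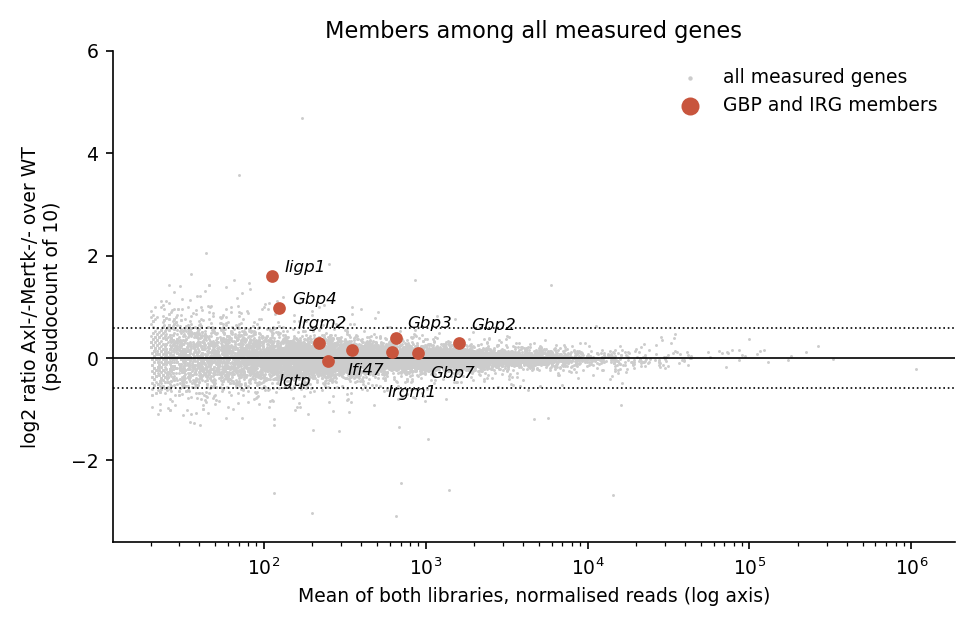
Each measured gene by its mean over both libraries (normalised reads, log axis) and its log2 ratio with 10 added to both values; dotted lines mark 1.5-fold. Iigp1 and Gbp4 lie above the upper dotted line, and the other 7 members lie between the dotted lines within the cloud of genes or at its upper edge.

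Within 250 kb of a member 22 measured genes with an official symbol that belong to other families were found. Of these 16 were higher and 6 lower (median 0.041 on the log2 scale), where 48.8% of all measured genes were higher. At 1.5-fold apart were 0 in either direction, against 1.74% of all measured genes higher and 1.33% lower. Their ratios ran from 0.894 for Gtf2b to 1.29 for Psme2b. Another 5 neighbours have provisional symbols, and all 5 were higher, with ratios from 1.01 for Gm5431 to 2.56 for F830016B08Rik. Whether these 5 belong to the IRG family was not examined. Gm12185 shares 223 exon bases with Tgtp1 on the same strand. F830016B08Rik (15.7 and 40.1) and Gm12185 (15.7 and 31.9) were at least 1.5-fold higher, and both passed the minimum only through the Axl-/-Mertk-/- library. None of the members lies on chromosome 2 or 7, which carry Mertk and Axl.

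RNA of the pathway that induces these genes was present in both libraries. Ifngr1 and Ifngr2, the chains of the interferon gamma receptor, had ratios of 1.11 (1.06 to 1.17) and 1.08 (1.02 to 1.15). The kinase gene Jak1 had a ratio of 0.979 (0.939 to 1.02), and the kinase gene Jak2 had 3377 and 3391 normalised reads, with an interval that includes 1 (0.953 to 1.06). Irf1, whose product binds ISRE, had 1988 and 2403 normalised reads, or 1.21 times WT (1.13 to 1.29). The feedback inhibitor gene Socs1 had a ratio of 0.995 (0.843 to 1.17). Over the list of interferon gamma signalling genes 9 of 15 measured genes were higher and 6 lower. The interval lay above 1 for 6 and below 1 for 1, beside 10.1% and 11.4% of all measured genes, and 0 were 1.5-fold apart. The cytokine gene Ifng itself was covered by 6 reads in WT against 4 in Axl-/-Mertk-/-, a ratio of 0.652 (0.135 to 2.75), so no difference in it was detectable at this depth.

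Other interferon gamma targets in macrophages did not all share the members' direction. Of 21 measured 13 were higher and 8 lower (median 0.15 on the log2 scale). At least 1.5-fold higher were Ly6a, a surface antigen that other lung cells also carry (76.0 and 188 normalised reads), Cxcl9, a chemokine that draws T cells (352 and 615), and the protease inhibitor gene Serpina3g (455 and 702). At least 1.5-fold lower were Cxcl10 (1051 and 614) and Nos2 (226 and 131), the inducible nitric oxide synthase. Ciita, the master regulator of MHC class II, had a ratio of 1.30 (1.21 to 1.39). In the MHC class II list, which includes Ciita itself, 10 of 11 measured genes were above WT (median log2 ratio 0.28). MHC class I and immunoproteasome genes were higher for 15 of 17 (median 0.13), with H2-Q6 at least 1.5-fold higher.

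Genes known best as type I interferon targets mostly had ratios below 1. Over all measured genes 48.8% had a ratio above 1, and 1.33% were at least 1.5-fold lower. Of 12 measured OAS and IFIT genes 11 were lower, including 6 past 1.5-fold, and the list had a median of -0.69 on the log2 scale and a summed ratio of 0.622 (0.584 to 0.662). Oasl1 was lowest, at 0.357 of WT, and Ifit1, Ifit2, Ifit3 and Oas3 were also past 1.5-fold. Of 31 other type I genes 26 were lower, with a median of -0.20 and a summed ratio of 0.886 (0.865 to 0.906). Rsad2, Isg15, Usp18 and Rtp4 were the 4 past 1.5-fold. Both intervals lie below that of the GTPase members, 1.16 to 1.26. The ISRE letters were present in 22 of 36 type I genes with a promoter entry, 9 of them among 12 OAS and IFIT genes, and in 6 of the 7 GTPase members with an entry. Among genes with an entry, these letters were in 3 of 15 interferon gamma targets and 3 of 14 interferon gamma signalling genes. MHC class I and immunoproteasome genes held them in 4 of 15, and MHC class II genes in 0 of 8.

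**Figure D5:**
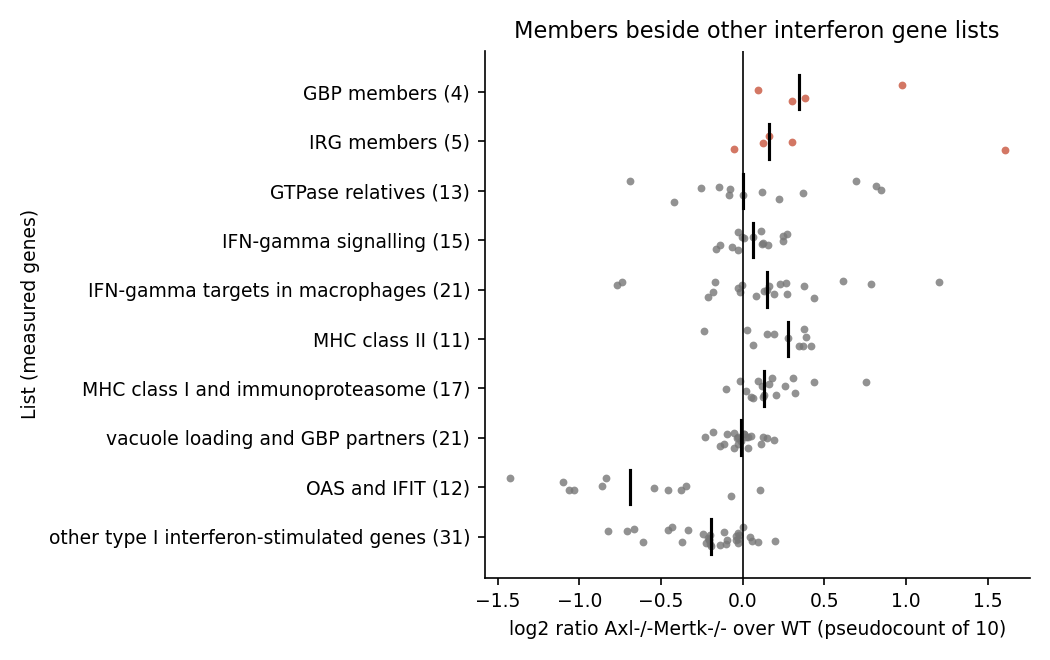
The log2 ratio (10 added to both values) of every measured gene in the members and in each list of interferon genes, with the list's median as a black bar and the number of genes in brackets. GBP members lie at or right of 0.09, whereas OAS and IFIT genes have their median at -0.69.

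Genes whose products work with GBP and IRG proteins were nearly level. Of 21 measured, which included the autophagy conjugation genes that target IRG proteins to vacuoles and the inflammasome genes downstream of GBPs, 10 were higher and 11 lower (median -0.012 on the log2 scale), and 0 reached 1.5-fold. Casp4, the mouse caspase-11 gene that GBPs help to activate, had a ratio of 0.881 (0.786 to 0.986). The DNA sensor gene Aim2 had a ratio of 1.14 (1.03 to 1.26), and Sqstm1, an autophagy adaptor, one of 0.852 (0.829 to 0.875).

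Markers of several other cell types had ratios above 1, as most members did. Over all measured genes 48.8% had a ratio above 1, and 1.74% were at least 1.5-fold higher. Endothelial markers were higher for 11 of 12 measured genes, with 9 past 1.5-fold, among them Ramp2 (12.1 and 35.4) and Tie1 (18.1 and 51.9), which were under the minimum in WT. The list summed to 4678 normalised reads in WT against 5051 in Axl-/-Mertk-/-. Cdh5 (80.9 and 155), Ptprb (72.4 and 169) and Adgrf5 (103 and 228) were also past 1.5-fold, whereas the most abundant marker, Vwf, was lower (3339 and 3053). The list for monocyte-derived or interstitial macrophages had 13 of 17 genes higher and sums of 67805 and 75662. It was led in abundance by Csf1r and in ratio by Ly6c2 (62.8 and 140), Plac8 (144 and 296) and Cx3cr1 (229 and 394). Folr2, a marker of interstitial macrophages, went the other way, with 226 and 111 normalised reads, or 0.492 times WT (0.380 to 0.633). Lyve1 and Tmem119 were at 0.761 and 0.785 times WT, with intervals that include 1. T, NK and innate lymphoid cell markers were higher for 9 of 10 measured genes of 18 listed, with sums of 2461 and 2752. The interval lay above 1 for 1 of them, Il7r, which holds most of the sum (1889 and 2082), and included 1 for the other 9. The T cell marker Cd3e had 28 and 30 reads. Red cell markers were higher for 5 of 5 measured, with sums of 249 and 754, and Alas2 (10.9 and 35.4) was under the minimum in WT. Of the remaining lists, dendritic cell markers were higher for 6 of 9, neutrophil for 4 of 7, lung epithelium for 5 of 10, B cell for 1 of 8 and eosinophil for 0 of 3. Alveolar macrophage markers were lower for 16 of 18, and the interval lay below 1 for 14. No marker with a row in the endothelial, monocyte or lymphoid lists was at 0 in either library. The gate was set for CD45+, CD11c high, Siglec-F+ cells, yet endothelial and red cell marker RNA was read in both libraries. The part of other cells in the ratios of the GTPase genes was not tested.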

How the data were processed

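Sorted lung macrophages of 2 genotypes, 1 library each, were sequenced as polyadenylated RNA in strand-specific libraries, per the labels' protocols. The authors deposited a signal, namely read counts divided by 1 size factor per library (0.829 for WT, 0.847 for Axl-/-Mertk-/-). TopHat2, DESeq2 and GRCm38 come from the submitters' processing notes. The sources used here do not give the read counter, its strand setting or the annotation, so how reads of overlapping genes were assigned is unknown.

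All values (100%, tolerance 1e-06) were whole multiples of 1 read, which gave the reads back. A count test (edgeR's quasi-likelihood) could not be fitted with 1 library per group. Ratios carry exact 95% intervals from these reads, which cover counting error only, since without molecular identifiers 2 reads may stem from 1 molecule. Medians and fold thresholds used log2 with 10 added to both values, which understates the change of low genes. The computation was tested on simulated reads.

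Positions came from GENCODE vM21 (GRCm38), which held 99.2% of measured identifiers, and promoters from RefSeq. Near copies were searched with BLAST+ 2.17.0 (at least 90% identity over 100 bases). Proteins were not used here. Python 3.11.15, SciPy 1.17.1, pandas 2.3.3, matplotlib 3.10.9 and edgeR 4.0.16 (for TMM factors) were used.

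Named were all members and measured relatives, set genes of the interferon gamma pathway (1 of them is not reported here), list genes at least 1.5-fold apart with a mean of at least 50 (at most 6 a list), and the most abundant and up to 3 markers with the highest ratio from lists that were mostly higher. Itgax, Siglecf, Cd3e, Il7r, Folr2, Lyve1, Tmem119, Ramp2, Tie1, Alas2, Aim2, Casp4, Sqstm1, Tgtp1, Gm12185 and the neighbours with the lowest and highest ratios were named after their values were seen. The members and lists were chosen with earlier results of these data known.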

Additional observations from a re-analysis of the deposited data

How the results depend on the processing

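The counts, the median and the single ratios of the members were recomputed with 1 or 50 added to both values, with no minimum mean or one of 100, and with 3 other scalings (median-of-ratios factors from these 2 libraries, total reads, TMM). The sums were recomputed under the 3 scalings and with members left out. The scalings moved all genes by at most 0.016 on the log2 scale. All 63 recomputed single ratios moved by less than their counting interval is wide on that side. Under these settings 8 members stayed higher and 2 at least 1.5-fold higher. Part of this was fixed in advance. The minimum means could not change a member's ratio, since the lowest member mean was 113. A number added to both values cannot turn a ratio. The scalings moved ratios by less than the log2 ratio closest to none, -0.051 for Igtp. The log2 ratio of Iigp1 ran from 1.16 to 1.77 and that of Gbp4 from 0.742 to 1.05. The sum over all members had a ratio from 1.18 to 1.22 under these scalings and without Gbp2, the most abundant, or without Iigp1. A setting added after seeing the data left out Gbp4, Ifi47, Igtp and Irgm2, whose exons overlap another gene with a row. Of the other 5 members 5 were higher and 1 at least 1.5-fold higher, fewer because fewer genes entered, and the sum of the remaining IRG members had a ratio of 1.28. No paired analysis was possible because each genotype has 1 library. Low depth limits the precision of the genes with few reads, among them Iigp1, Gbp4, Tgtp2, Tgtp1, Mx2, Irgc1 and Ifng.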
